A study of Homo sapiens with 2 samples.

Results

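The let-7 family guide strands are 9 mature miRNAs, hsa-let-7a-5p, hsa-let-7b-5p, hsa-let-7c-5p, hsa-let-7d-5p, hsa-let-7e-5p, hsa-let-7f-5p, hsa-let-7g-5p, hsa-let-7i-5p and hsa-miR-98-5p (the species prefix is left out below), chosen by name from the 2588 mature miRNAs listed for each library. They were counted in small RNA recovered from lysate of parental MDA231 (MDA-MB-231) cells, an established line from a breast cancer that lacks the hormone receptors and HER2. In the bait library the lysate had been incubated with amylose resin carrying the long non-coding RNA MACC1-AS1, transcribed in vitro by T7 RNA polymerase with an MS2 tag and held on the resin by a fusion of maltose-binding protein and MS2 coat protein. In the no-bait library there was no RNA substrate, per the labels, and neither an unrelated RNA nor the MS2 tag alone served as a control, so MACC1-AS1, its tag and any RNA on the resin cannot be told apart. Each group was 1 library (1047269 miRNA counts with bait and 269716 without), so differences here have no replication, and any other difference between the 2 preparations cannot be told apart from the bait. All ratios compare shares of a library, with no scale for the amount recovered. A gain by some miRNAs lowers the shares of the others.

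The comparison asks which miRNAs associate with the tagged RNA. A miRNA guide strand is loaded into an Argonaute protein and directs it to RNAs that pair with the seed, the bases near its 5′ end. let-7 was found as a regulator of developmental timing in worms. In mammals it is known for restraining RAS, HMGA2, MYC and LIN28, and low let-7 is linked to poorly differentiated, stem-like breast cancer cells. The vertebrate family shares 1 seed and is made from many separate hairpins, and LIN28 blocks the processing of most of them.

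The mature sequences are shown because the members that differed most in recovery are almost identical in letters. They are those of RefSeq (GRCh38.p14), in which all 9 names matched, and capitals mark the seed, bases 2 to 8.
let-7a-5p: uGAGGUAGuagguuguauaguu
let-7b-5p: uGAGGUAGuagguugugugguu
let-7c-5p: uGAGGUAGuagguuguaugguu
let-7d-5p: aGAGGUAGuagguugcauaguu
let-7e-5p: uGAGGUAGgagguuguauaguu
let-7f-5p: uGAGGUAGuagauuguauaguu
let-7g-5p: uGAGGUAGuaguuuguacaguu
let-7i-5p: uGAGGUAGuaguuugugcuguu
miR-98-5p: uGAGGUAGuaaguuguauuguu
All 9 are 22 bases long and share the seed. Outside it they differ from let-7a-5p at 1 to 4 positions. Counted from the 5′ end, with the let-7a-5p base first, the changes are A17G and A19G in let-7b-5p, A19G in let-7c-5p, U1A and U16C in let-7d-5p, U9G in let-7e-5p, G12A in let-7f-5p, G12U and U18C in let-7g-5p, G12U, A17G, U18C and A19U in let-7i-5p, and G11A and A19U in miR-98-5p. No source used here states how the authors handled reads that match more than 1 of these names, so the counts of such members are uncertain.

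As a group the let-7 guide strands took a smaller share of the library with bait than without. Their summed counts were 44637 of the bait library, or 4.26% (exact Clopper-Pearson 95% interval 4.22% to 4.30%), and 16143 of the no-bait library, or 5.99% (5.896% to 6.08%). The bait over no-bait ratio of the sum was 0.712, with an exact conditional binomial 95% interval of 0.699 to 0.725. This interval, like every interval here, covers counting error only. With DESeq2 size factors in place of totals the ratio of the sum was 0.954 (0.937 to 0.971), and with totals but without let-7i-5p in the sum it was 0.865. Among miRNAs with at least 1000 counts in both libraries together, and leaving out the passenger arms and cluster partners described below, those with log2 ratios nearest to the sum's -0.49 were miR-378a-3p (-0.36), miR-106b-3p (-0.35) and miR-25-3p (-0.29), a likeness measured over 2 libraries only.

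The family did not move as one. A miRNA was examined if it had at least 30 counts in both libraries together, and all 9 members passed. A higher call needed a ratio of 2 or more with an interval above 1, and a lower call a ratio of 0.5 or less with an interval below 1. Higher calls went to 2 of the 9, let-7b-5p and let-7g-5p, where 39.4% of the 231 miRNAs examined were called higher. Lower calls went to 2 of the 9, let-7c-5p and let-7i-5p, where 26.8% of all were called lower. The other 5 passed neither rule. The median log2 ratio of the members was -0.68, beside 0.55 over all miRNAs examined. Another scaling shifts every log2 ratio by the same amount, 0.15 with edgeR's TMM factors, 0.42 with DESeq2 size factors and -0.13 with totals computed without the 5 most abundant miRNAs, so the distance between these medians does not depend on it. It does depend on the count minimum. At a minimum of 100 counts the median over all miRNAs was 0.52, beside -0.69 for the 8 let-7 members that passed. Over all miRNAs the median was 0.31 at a minimum of 10 counts. With no minimum, where many miRNAs have few counts, it was -1.22, and the let-7 median of -0.68 lies above it. For log2 ratios a count of 0 in 1 library was set to 3, so rare miRNAs seen only with bait get negative values. Thus let-7f-2-3p, at 5 counts with bait and 0 without, gets -1.22. The median with no minimum reflects this floor, and its place below let-7 is not a result about let-7.

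let-7b-5p was the member with the highest ratio. It had 145 counts without bait, or 538 RPM (the count divided by the library's total and scaled to 1000000), and 2248 counts with bait, or 2147 RPM. Its rank by abundance went from 64 to 37. The ratio was 3.99 (3.37 to 4.76), above 76.6% of all miRNAs examined. The members linked by single base differences (let-7a-5p, let-7b-5p, let-7c-5p, let-7e-5p and let-7f-5p) were also summed, and the ratio of the sum was 0.666. Most of the summed counts are let-7a-5p and let-7f-5p, so this value does not describe let-7b-5p or let-7c-5p. let-7b-5p has no call of its own in such a sum, which can neither keep nor end its separate call. In the authors' deposited table it has a log2 fold change of 1.997 and a p of 0.00184, from a test that is not named and that compares 2 libraries rather than the conditions. Its single hairpin (chromosome 22, 46113686 to 46113768, plus strand) lies in an exon of the non-coding host gene MIRLET7BHG.

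**Figure D1:**
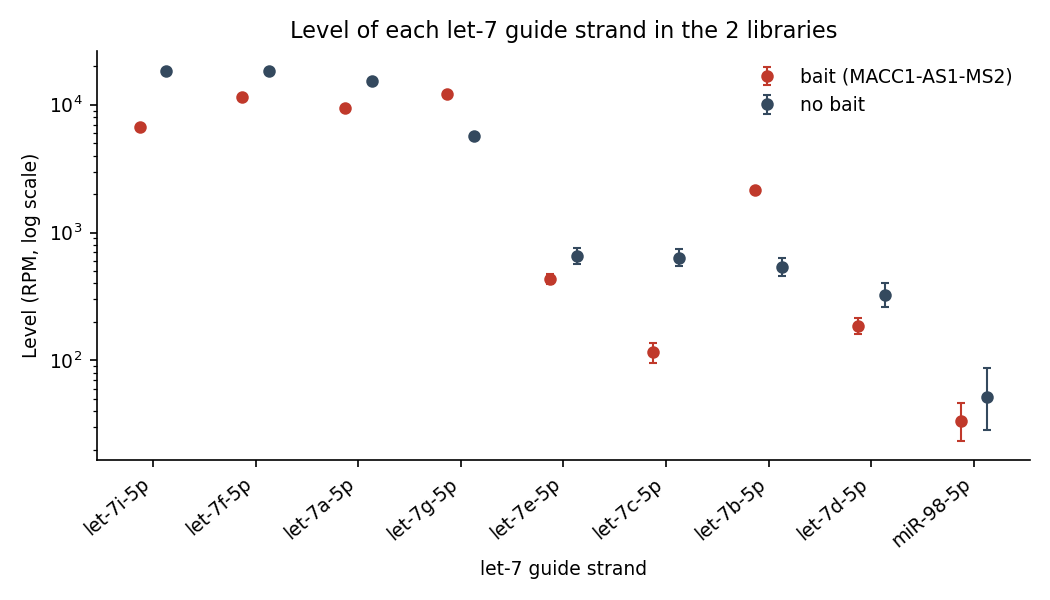
Level of each let-7 guide strand in the bait library (red) and the no-bait library (dark), in RPM on a log axis, with exact 95% counting intervals and members ordered by their level without bait. let-7g-5p and let-7b-5p lie above their no-bait level with bait, the other 7 below it, and let-7c-5p has the widest gap downward.

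let-7g-5p, the other member called higher, is encoded in an intron of WDR82 (chromosome 3, 52268278 to 52268361, minus strand). It had 1522 counts without bait and 12641 with bait, or 5643 and 12070 RPM. Its ratio of 2.14 (2.03 to 2.26) lay close to the fold of 2 and was 1.96 with totals computed without the 5 most abundant miRNAs, which ended the call. Within the family it held the fourth place without bait and the first with bait.

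let-7c-5p was the member with the lowest ratio. It had 172 counts in the shallower no-bait library and 121 in the bait library, or 638 and 116 RPM. It was 5.52-fold lower with bait (4.35 to 7.02), and 11.3% of the miRNAs examined had a lower ratio. The authors' deposited table gives it a log2 fold change of -2.46 and a p of 0.00117 by the same unnamed test. let-7c is encoded in an intron of MIR99AHG on chromosome 21 (16539828 to 16539911, plus strand).

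let-7i-5p led the family without bait, level with let-7f-5p, and with bait fell behind let-7g-5p, let-7f-5p and let-7a-5p. It had 4961 counts without bait and 7065 with bait, or 18393 and 6746 RPM, and was 2.73-fold lower (2.63 to 2.83). let-7i has a hairpin of its own on chromosome 12 (62603686 to 62603769, plus strand), in an intron of the long non-coding RNA gene AC048341.1. In the authors' deposited table let-7i-5p and let-7g-5p have p-values of 0.0516 and 0.0597, so let-7b-5p and let-7c-5p were the 2 members under 0.05 there.

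The remaining 5 members lay together, between a ratio of 0.574 and 0.661. let-7f-5p, made from a hairpin on chromosome 9 and another on the X chromosome, had 4954 counts without bait and 12011 with it, a ratio of 0.624 (0.604 to 0.646). let-7a-5p, made from 3 hairpins, had 4110 and 9866 counts and a ratio of 0.618 (0.596 to 0.641). let-7e-5p had 177 and 454 counts and a ratio of 0.661 (0.554 to 0.790). let-7d-5p, the member that starts with A in place of U, had 88 and 196 counts and a ratio of 0.574 (0.444 to 0.746). miR-98-5p was the rarest, with 14 and 35 counts, and its ratio of 0.644 had an interval from 0.338 to 1.30, so its direction was not detectable at this depth. The intervals of all 10 pairs among these 5 included 1, so their order is not resolved at this depth. The interval of miR-98-5p over let-7i-5p also included 1 (1.76-fold, 0.920 to 3.54). Each step from let-7c-5p to let-7i-5p, let-7i-5p to let-7d-5p, let-7e-5p to let-7g-5p and let-7g-5p to let-7b-5p exceeded counting error.

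**Figure D2:**
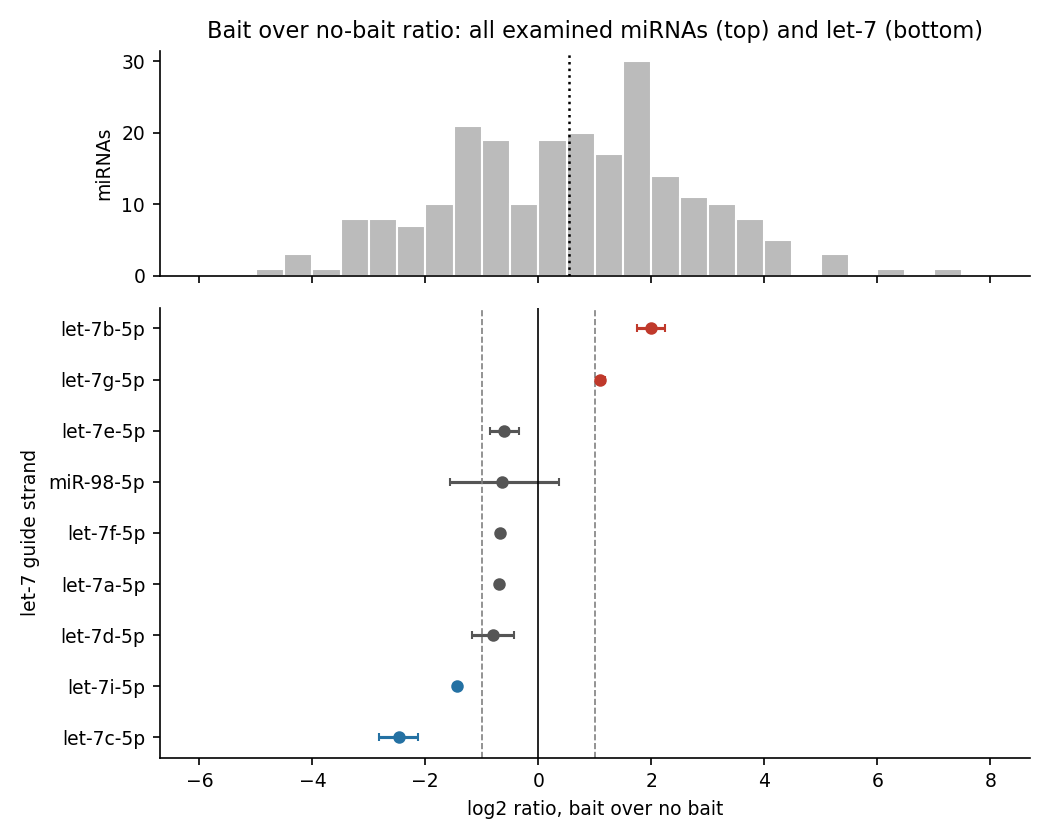
Top, distribution of the log2 bait over no-bait ratio over the 231 miRNAs examined, with a dotted line at their median of 0.55. Bottom, the log2 ratio of each let-7 guide strand with its 95% counting interval and with dashed lines at a 2-fold difference. Members called higher are in red, those called lower in blue and those called neither in grey. The points of 5 members lie together between -1 and 0, with let-7b-5p and let-7g-5p above 1 and let-7i-5p and let-7c-5p below -1.

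The make-up of the let-7 pool, which no scaling between the libraries can change, differed most in fold in the members called higher or lower. Without bait, let-7i-5p held 30.7% of the family's counts (30.02% to 31.4%) and let-7g-5p 9.43% (8.98% to 9.89%). With bait, let-7i-5p held 15.8% (15.5% to 16.2%) and let-7g-5p 28.3% (27.9% to 28.7%). There were 326 let-7i-5p counts per 100 let-7g-5p counts without bait, and 55.9 with it. let-7f-5p and let-7a-5p kept the larger part of their shares, at 30.7% and 25.5% without bait and 26.9% and 22.1% with it. For both, the intervals in the 2 libraries did not overlap. These 4 members made up 96.3% of the family's counts without bait and 93.2% with bait. let-7b-5p rose from 0.898% to 5.04% of the family, while let-7c-5p went from 1.07% to 0.271%. The shares of let-7d-5p, let-7e-5p and miR-98-5p had overlapping intervals in the 2 libraries.

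**Figure D3:**
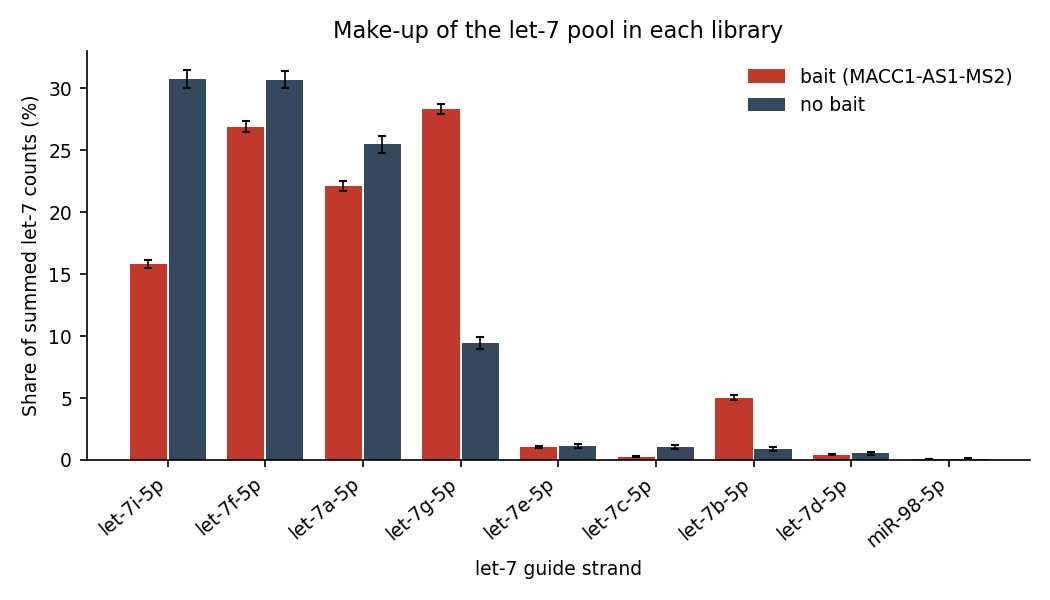
Share of the summed let-7 counts held by each guide strand (percent) in the bait library (red) and the no-bait library (dark), with exact 95% counting intervals. let-7i-5p and let-7f-5p lead without bait, each at 30.7%, and let-7g-5p leads with bait at 28.3%.

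All 36 pairs of members were compared by the ratio of their ratios, which also does not depend on scaling, with the exact conditional 95% interval of the 2 by 2 table of counts. In 25 pairs the interval excluded 1, and 20 pairs were at least 2-fold apart. The widest gap lay between let-7b-5p and let-7c-5p, 22.0-fold (16.4 to 29.7), although their mature strands differ at 1 position, G17A with the let-7b-5p base first, in capitals here.
let-7b-5p: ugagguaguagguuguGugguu
let-7c-5p: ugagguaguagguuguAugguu
For each 100 let-7b-5p counts there were 119 let-7c-5p counts without bait and 5.38 with bait. The other pairs that differ at 1 position were let-7a-5p over let-7c-5p, 3.41-fold apart (2.68 to 4.35), let-7e-5p over let-7a-5p at 1.07 (0.893 to 1.28) and let-7f-5p over let-7a-5p at 1.01 (0.961 to 1.06). For each 100 counts of let-7a-5p there were 4.18 counts of let-7c-5p without bait and 1.23 with bait. How many let-7c-5p counts are reads of its more abundant neighbours was not tested.

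let-7g-5p and let-7i-5p, called in opposite directions, differ at 2 positions, A17G and A19U with the let-7g-5p base first, in capitals here. Their ratios were 5.83-fold apart (5.47 to 6.22).
let-7g-5p: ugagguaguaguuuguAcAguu
let-7i-5p: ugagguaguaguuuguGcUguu
Of the 10 different changes from let-7a-5p in the family, 5 are shared by 2 members. Both higher and lower calls occur among the members with A17G (let-7b-5p and let-7i-5p), with A19G (let-7b-5p and let-7c-5p) and with G12U and U18C (let-7g-5p and let-7i-5p). A19U is shared by let-7i-5p, called lower, and miR-98-5p, which passed neither rule. The number of differing positions did not order the gaps, with a median of 2.24-fold over the 4 pairs that differ at 1 position, 3.45 over 10 pairs at 2 positions, 3.24 over 11 pairs at 3 positions and 1.87 over 9 pairs at 4 positions. let-7b-5p holds 10 G or C bases, and the others 7 to 9.

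**Figure D4:**
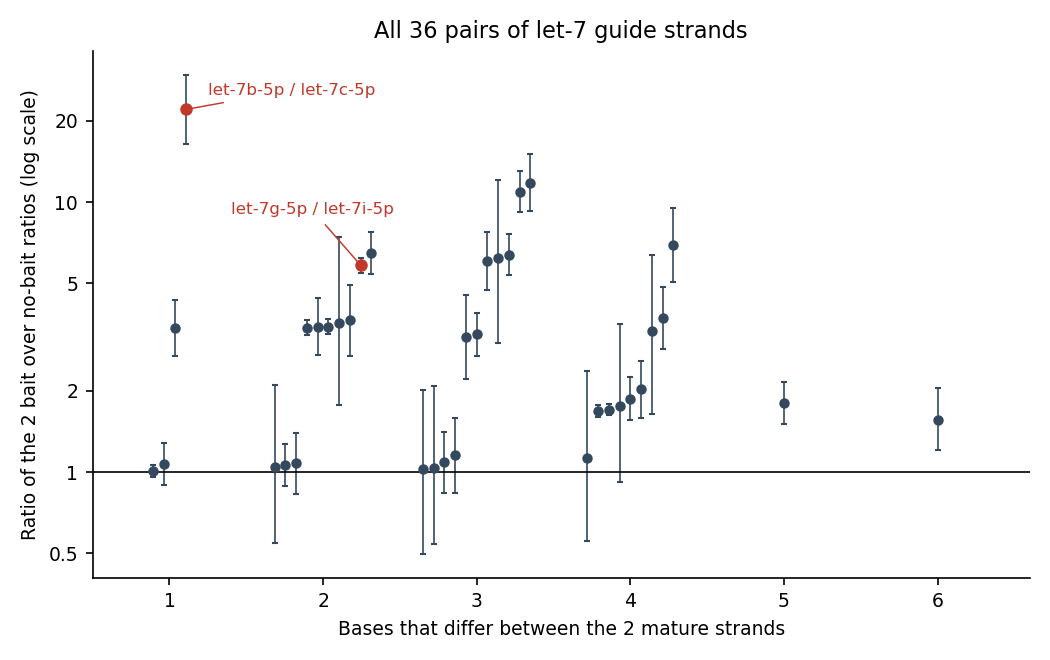
Each point is 1 of the 36 pairs of let-7 guide strands, with the number of bases that differ on the horizontal axis (pairs are spread sideways to be seen) and the ratio of their bait over no-bait ratios, higher over lower, on a log axis with 95% counting intervals and the pairs named in the plot in red. The pair let-7b-5p and let-7c-5p, which differs at 1 base, lies highest at 22.0, above all pairs that differ at 2 to 6 bases.

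The annotated MACC1-AS1 transcript (GENCODE version 29, 639 nt, from 4 exons on chromosome 7, 20141916 to 20153531, plus strand, GRCh38) was searched on its own strand for the letters complementary to the let-7 seed. It held 0 copies of TACCTC, the match to bases 2 to 7, and therefore none of CTACCTC (bases 2 to 8) or TACCTCA (bases 2 to 7 followed by A), both of which contain it. Among the first 639 nt of 26743 long non-coding transcripts of at least that length, 11.2% hold TACCTC, 4.29% CTACCTC and 3.73% TACCTCA. The bait's own isoform and tag sequence were not analysed here.

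Genes that lie together gave guide strands with like ratios in some clusters and unlike ratios in others. let-7a-1, let-7f-1 and let-7d share an intron-borne cluster on chromosome 9 (94175957 to 94178920, plus strand), and let-7f-2 and miR-98 share an intron of HUWE1, a ubiquitin ligase gene, on the X chromosome (53556223 to 53557274, minus strand). The guides of both clusters lay within the range of 0.574 to 0.644. let-7f-5p is counted for both clusters and let-7a-5p comes from 3 hairpins, so neither ratio belongs to a single cluster. let-7e-5p, encoded on chromosome 19, had a ratio of 0.661 that was also not resolved from these. The likeness is therefore not particular to genes that lie together. On chromosome 22 the let-7a-3 and let-7b hairpins lie side by side in MIRLET7BHG, and let-7b-5p had a ratio 6.46-fold that of let-7a-5p (5.43 to 7.72), although let-7a-5p also comes from 2 other hairpins.

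let-7a-2 (in an intron of MIR100HG), let-7c (MIR99AHG) and let-7e (SPACA6) lie in 3 paralogous clusters, each with a member of the miR-99/miR-100 family and of the miR-125 family. Of the 13 listed arms of such partners and of miR-4763, annotated beside let-7b, 8 were examined, 1 was called higher and 2 lower, beside 39.4% and 26.8% of all miRNAs examined, and their median log2 ratio was -0.65, beside 0.55. miR-99a-5p, beside let-7c, had 545 counts without bait and 1314 with it, a ratio of 0.621 that was 3.43-fold that of let-7c-5p (2.64 to 4.45). miR-125b-5p, made from hairpins beside let-7c and beside let-7a-2, had a ratio 62.7-fold that of let-7c-5p (49.1 to 80.3). miR-100-5p, beside let-7a-2, had a ratio of 0.655, 1.06-fold that of let-7a-5p (1.02 to 1.099), and miR-125b-1-3p had one of 0.593. In the cluster of let-7e, the ratios of miR-99b-5p and miR-125a-5p were 1.77-fold (1.48 to 2.12) and 2.17-fold (1.79 to 2.64) that of let-7e-5p. The minor arms miR-99b-3p and miR-125a-3p were both called lower, with ratios of 0.328 and 0.280.

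The passenger arms of the same hairpins were rare. Of 11 listed, 4 were examined and 3 were called higher, beside 39.4% of all miRNAs examined. Those 3 passed the minimum of 30 counts only through the deeper bait library, in which they are high. Their number is therefore no result about the passenger arms as a set, and their ratios below are given as values only. Summed over the 11, the ratio was 0.916 (0.774 to 1.09), from 178 counts without bait and 633 with it. Most of these counts were let-7d-3p in both libraries, so the sum does not describe the other arms. let-7b-3p had 5 counts without bait and 63 with it. Its ratio of 3.25 (1.32 to 10.3) could not be told apart from that of let-7b-5p (1.23-fold, 0.380 to 3.09). let-7d-3p had 162 counts without bait and 380 with it, more than its guide in both libraries, and a ratio of 0.604, also not distinct from that of let-7d-5p (1.05-fold, 0.761 to 1.45). let-7a-3p, which comes from the let-7a-1 and let-7a-3 hairpins, had 7 counts without bait and 119 with it. Its ratio of 4.38 was 7.08-fold that of let-7a-5p (3.33 to 18.01). let-7a-2-3p had 1 count without bait and 32 with it, a ratio of 8.24 (1.38 to 336). let-7g-3p and let-7i-3p had 0 counts in both libraries, so the members that differed most among the abundant guides have no passenger counts to set beside them.

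Outside the 9 names, 2 deposited miRNAs share the let-7 seed. miR-4458 had 0 counts in both libraries, which allows up to 3.52 RPM with bait and 13.7 RPM without. miR-4500 had 1 count with bait and 0 without. Among marker miRNAs, 5 of basal breast lines held 36.7% of counts with bait and 50.4% without, most of it miR-100-5p. The ratios of the other 4 were 0.200 for miR-222-3p, 1.27 for miR-221-3p, 1.77 for miR-146a-5p and 11.4 for miR-125b-5p. The 6 epithelial markers, known to be low in this mesenchymal-like line, held 0.018% and 0.0111%, and the 7 blood cell markers 0.0432% and 0.0864%. Most counts of these lists were miR-200b-3p, with 28 counts without bait and 144 with it (ratio 1.32), and miR-486-5p, with 214 and 386 counts (ratio 0.465). The epithelial miR-141-3p and miR-205-5p and the blood cell miR-144-3p, miR-144-5p and miR-223-3p had 0 counts in both. The part of these lists in the let-7 ratios was not tested.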

How the data were processed

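Small RNA eluted with maltose from the resin was sequenced as 1 library with bait and 1 without. The authors deposited whole-number counts per mature miRNA and an RPM value, which equals the count over the library total with a largest deviation of 0.00994 RPM. The authors' deposited comparison table gives a log2 fold change and a p-value per miRNA. Per the submitters' processing notes, BWA was used (version not given in the sources used here). Trimming, the miRNA reference, the genome build and the treatment of multi-mapping reads are likewise not given. One count is worth 0.955 RPM with bait and 3.71 RPM without, so the no-bait library sets the precision.

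Counts were scaled by library totals, over the whole table. Ratios have exact conditional binomial 95% intervals and shares exact Clopper-Pearson intervals (scipy 1.17.1). The intervals cover counting error only, because each group is 1 library. Reads without molecular identifiers are not independent molecules, so the intervals can be too narrow even for counting error. With 1 library per group no test of the conditions was possible and no p-value was computed. Functions were tested on simulated data. The 9 members, the lists and the rules were chosen with earlier results of these data known. Named were all members, other miRNAs with the same seed, passenger arms and cluster partners with at least 30 counts, and, outside these lists, the 3 miRNAs with at least 1000 counts nearest the summed ratio; others, such as single marker miRNAs, were named after their values were seen. Alternatives were edgeR 4.0.16 TMM factors, DESeq2 1.42.0 size factors, totals without the 5 most abundant miRNAs or without let-7, other count minimums, a stricter call rule, the deposited RPM, and near-identical members summed. Hairpin positions and sequences are from RefSeq (GRCh38.p14), and host genes from GENCODE version 29 on the same strand.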

Additional observations from a re-analysis of the deposited data

How the results depend on the processing

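The ratio of the summed family was 0.712 and stayed below 1 at each setting, with 0.792 under TMM, 0.954 under DESeq2 size factors, 0.651 with totals without the 5 most abundant miRNAs and 0.699 with totals without let-7. Leaving out 1 member at a time, an alternative chosen after the data were seen, gave 0.744 without let-7a-5p, 0.682 without let-7b-5p, 0.751 without let-7f-5p, 0.564 without let-7g-5p and 0.865 without let-7i-5p, each of which follows from the members left. The higher calls went from 2 to 1, without let-7g-5p, with totals without the 5 most abundant miRNAs. Under the other scalings, minimums of 10 and 100 counts, no minimum and an interval bound beyond 2-fold, the calls were let-7b-5p and let-7g-5p higher and let-7c-5p and let-7i-5p lower, although let-7i-5p stood at 0.491 with DESeq2 size factors. Over all miRNAs examined, the shares called higher and lower were 39.4% and 26.8%, and 13.3% and 14.4% with no count minimum. When the members linked by single differences (let-7a-5p, let-7b-5p, let-7c-5p, let-7e-5p and let-7f-5p) were summed, the ratio was 0.666. This sum is mostly let-7a-5p and let-7f-5p, so it neither reverses nor ends the separate calls of let-7b-5p and let-7c-5p. Depth limits miR-98-5p and the passenger arms. No paired analysis was possible because each group is 1 library.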

Other observations

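The gap between let-7b-5p and let-7c-5p was set beside other near-identical miRNAs after the values were seen. Among the 203 examined miRNAs with a RefSeq mature sequence, 11 pairs have equal lengths and differ at 1 position, 4 of them within let-7. The 7 other pairs were 1.05-fold to 2.66-fold apart, with a median of 1.79, and the widest of them was miR-181b-5p over miR-181d-5p. let-7b-5p over let-7c-5p at 22.0-fold and let-7a-5p over let-7c-5p at 3.41-fold were the 2 widest of the 11. Pairs are few and share members, so this is a description. Examined miRNAs without such a sequence are not covered, so other pairs that differ at 1 position can be missing.

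Of the 231 miRNAs examined, 203 had a RefSeq mature sequence, so some families are not covered in full. Of the seed families, 3 had at least 4 examined members with such a sequence. The miR-30 guides are not among these 3, with log2 ratios from 1.22 (miR-30d-5p) to 3.82 (miR-30e-5p). The place of let-7 among all seed families is therefore not shown. The SD of the log2 ratio within let-7 was 1.31 over 9 members, beside 2.19 over 4 members of the family of miR-106b-5p and 2.89 over 4 members of the family of miR-25-3p. The highest log2 ratio in the family of miR-106b-5p, 6.40, is that of miR-106b-5p, at 2 counts without bait and 655 with it. That family's SD therefore rests in part on few counts. The SD over all 231 miRNAs examined was 2.33.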
